A study of Homo sapiens with 6 samples.

Results

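The genes described are 10 members of the S100 family of small calcium-binding proteins: S100A2, S100A3, S100A4, S100A6, S100A10, S100A11, S100A13, S100A14, S100A16 and S100P. They were chosen by name with their mean expression in both groups of the comparison below already known, so the values that chose them are the values given here, and these are a description without a test. They are 10 of the 21 S100 genes looked up and of the 58174 genes in the table. No threshold was stated for the choice: S100A10 had the smallest log2 ratio of the 10 genes, 1.54, and S100A1, which was not chosen, had 0.03.

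AGS is a cell line from a human gastric adenocarcinoma. The study sequenced total RNA in 2 groups of such cells, with 3 libraries each: cells that received a control siRNA without a target (si-NC), and cells whose FTO was depleted by siRNA (si-FTO). FTO is an enzyme that removes the methyl group of m6A from RNA. The siRNA treatment is that of the titles and the study's methods, whereas the genotype in the labels reads wild type in the control group and FTO-/- in the other. The comparison asks how gene expression differs when FTO is depleted.

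S100 proteins carry a pair of EF hands, the loops that bind calcium, and most of them work as dimers that expose a surface for partner proteins once calcium is bound. Inside the cell they bind annexins, cytoskeletal proteins and p53, and some are released and act through receptors such as AGER (RAGE). S100A4, S100A6, S100A11 and S100P are known for raised levels in many carcinomas, including those of the digestive tract.

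The values are TPM, a transcript abundance scaled to a fixed total and for transcript length, so levels can be set side by side between genes. Where 2 TPM values stand together without group names, si-NC comes first. The table holds 1 mean per group. The spread between libraries cannot be computed from these means, so no replicate check and no test of the difference was made here. The number of reads is unknown too, since TPM keeps no depth. A log2 ratio is that of mean TPM plus 1 in si-FTO over mean TPM plus 1 in si-NC, a scale on which changes of low genes come out too small. The 20493 genes whose mean reached 0.5 TPM in either group were compared. A gene is called higher from a log2 ratio of 1 upwards, and lower from -1 downwards. FTO itself had 33.1 TPM in si-NC against 7.27 TPM in si-FTO (log2 ratio -2.05), so the group labelled as depleted had the lower level. Several defining markers of epithelial cells, among them KRT19, ESRP1 and GRHL2, were near 0 in both groups, although the line is labelled as a gastric adenocarcinoma line. EPCAM was low, with 1.22 TPM in si-NC against 0.113 TPM in si-FTO. Of the 11 epithelial markers compared, 7 were called higher in si-FTO and 1, CDH1, was called lower. The shares of all genes compared were 11.4% and 17.0%. The keratins KRT8 and KRT18 reached 3139 and 1851 TPM in si-FTO, against 10.8 and 52.1 TPM in si-NC. The ratios below compare groups that differ in these markers too, and neither the identity of the cells nor whether the markers differ through FTO was tested.

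All 10 of the 10 S100 genes passed the minimum and were called higher in si-FTO, and 0 were called lower. Among all genes compared, 2340 (11.4%) were called higher and 3492 (17.0%) lower. Because the same contrast chose the 10 genes, nothing is read from their count. Of the 10 genes, 5 reached the minimum in both groups, namely S100A2, S100A4, S100A10, S100A11 and S100A13. The other 5 passed through si-FTO only and so had to be higher there. Of the 15535 genes at the minimum in both groups, 1464 (9.42%) were called higher. The median log2 ratio of the 10 genes was 2.77, with a range from 1.54 to 9.79, whereas all genes compared had a median of -0.20. For the 5 genes at the minimum in both groups the median was 1.92. Since this contrast chose the genes, nothing is read from either median. Keratins and other markers of cell types, whose values are given below, differed between the groups as well, and their part in these values was not tested. In bulk RNA, a change in the share of cells that express a gene and a change in RNA per cell cannot be told apart.

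**Figure D1:**
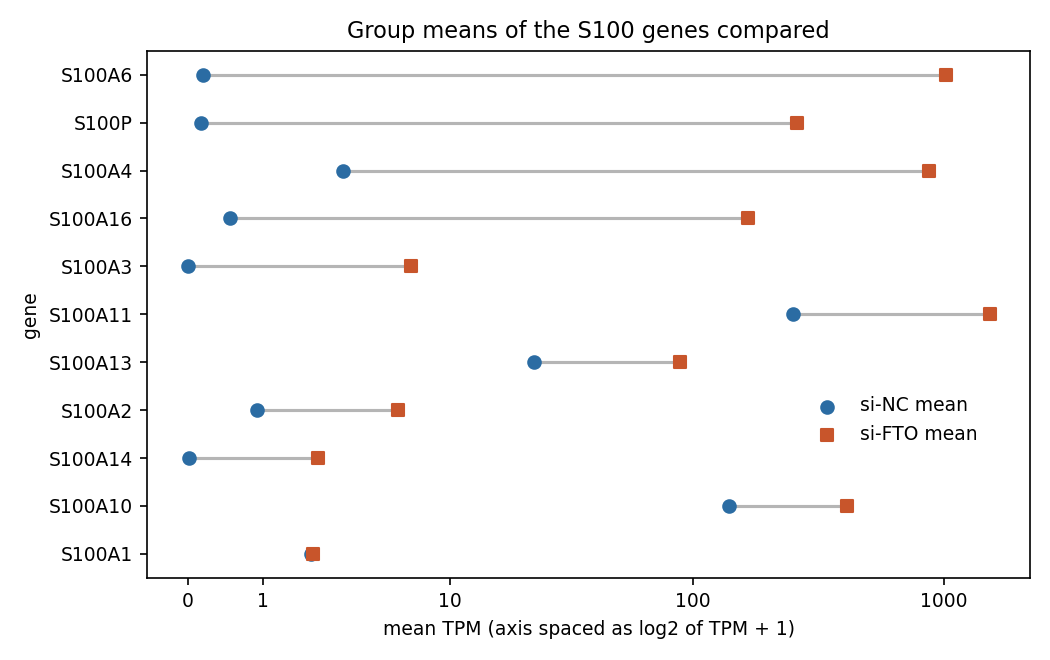
Mean TPM of the 10 S100 genes and of S100A1 in si-NC (circles) and si-FTO (squares), on an axis spaced as log2 of TPM plus 1, ordered by log2 ratio. Each point is 1 group mean without an error; S100A6 spans the widest distance, from 0.154 to 1021 TPM, and the points of S100A1 nearly coincide.

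S100A10 and S100A11, the partners of annexin A2 and annexin A1, were the S100 genes with the highest levels in si-NC. S100A11 had 252 TPM in si-NC against 1525 TPM in si-FTO (log2 ratio 2.59). This was the highest S100 level in both groups, and in si-FTO it ranked 89 among all genes. S100A10, which has lost calcium binding and stays in its active shape, had 141 TPM in si-NC against 412 TPM in si-FTO (log2 ratio 1.54). It had the second level of the family in si-NC and the fourth in si-FTO, and its ratio was the smallest of the 10 genes. S100A13, which takes part in the release of FGF1 and interleukin-1 alpha from the cell, was the third in si-NC with 22.8 TPM. In si-FTO it had 89.2 TPM (log2 ratio 1.92). These 3 genes were thus expressed well above the minimum in both groups, and their log2 ratios depend little on the pseudocount.

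S100A4, S100A6, S100A16 and S100P had the largest log2 ratios of the family at the pseudocount of 1. With 0.0001 TPM kept and no pseudocount or filter, S100A3, listed at 0 in si-NC, came first at 16.03. S100A6, or calcyclin, which binds CACYBP and annexins, had 0.154 TPM in si-NC against 1021 TPM in si-FTO (log2 ratio 9.79). Among all genes its level ranked 23137 in the control group but 123 in si-FTO, and only 3 of the genes compared had a larger log2 ratio. S100A4, which binds the heavy chain of nonmuscle myosin MYH9 and is known for its part in cell motility, had 3.13 TPM in si-NC against 872 TPM in si-FTO (log2 ratio 7.73). S100P, first found in placenta and known to bind ezrin (EZR) and AGER, had 0.134 TPM in si-NC against 260.3 TPM in si-FTO (log2 ratio 7.85). S100A16, a widely expressed member, had 0.479 TPM in si-NC against 166 TPM in si-FTO (log2 ratio 6.82). By log2 ratio S100A6, S100P, S100A4 and S100A16 ranked 4, 16, 20 and 40 among the 20493 genes compared. S100A6, S100A16 and S100P were also among the 39 genes (0.190%) with under 1 TPM in si-NC and at least 100 TPM in si-FTO, whereas 9 genes had under 1 TPM in si-FTO and at least 100 TPM in si-NC.

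The other 3 genes stayed under 10 TPM in both groups. S100A2, a mostly nuclear member that binds p53, had 0.882 TPM in si-NC against 5.85 TPM in si-FTO (log2 ratio 1.86). S100A14, found mainly in epithelia, had 0.0165 TPM in si-NC against 2.29 TPM in si-FTO (log2 ratio 1.70). The size of this ratio depends on the pseudocount: it was 4.36 at a pseudocount of 0.1. S100A3, best known from the hair cuticle, was listed at 0 in si-NC and had 6.69 TPM in si-FTO. No fold is given for it, and its place at 2.94 on the log2 scale is set by the pseudocount. These genes were low in si-FTO as well, and without depth the precision of such low means is unknown.

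**Figure D2:**
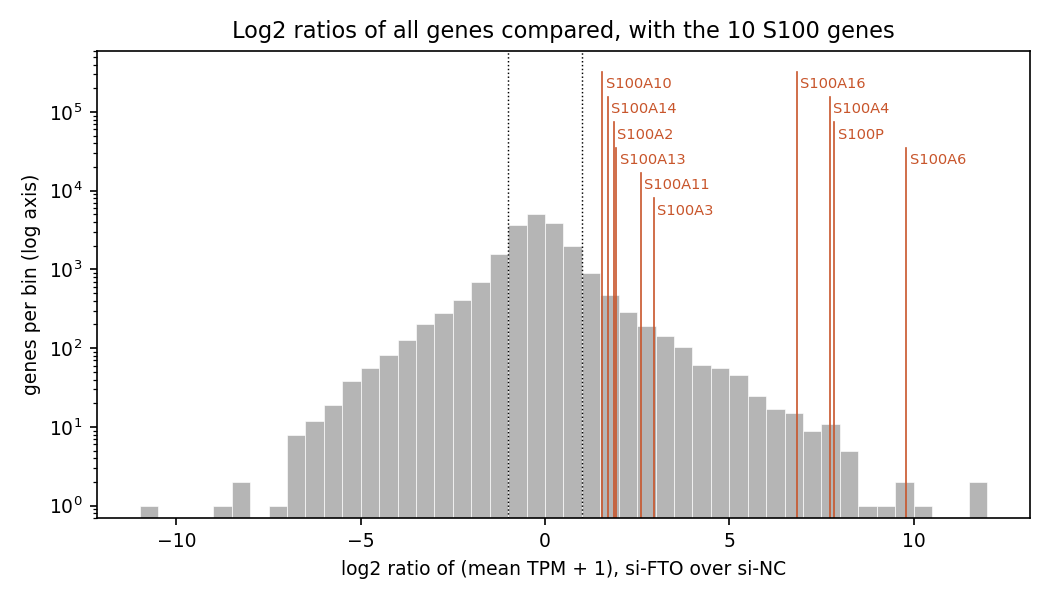
Number of genes per bin of 0.5 in log2 ratio of mean TPM plus 1, si-FTO over si-NC, for the 20493 genes compared (grey bars, log axis); dotted lines mark log2 ratios of -1 and 1. Labelled lines mark the 10 S100 genes, 6 of them between 1.54 and 2.94 and the other 4 between 6.82 and 9.79.

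The means of the 10 genes added up to 420.4 TPM for si-NC and 4360.1 TPM for si-FTO, which is 0.0420% and 0.436% of the total of all genes. The make-up of the sum differed between the groups. S100A11 and S100A10 gave 60.0% and 33.4% of it in si-NC, and together 93.4%. In si-FTO, S100A11 gave 35.0%, S100A6 23.4%, S100A4 20.0% and S100A10 9.44%. S100A6 and S100A4 had given 0.0366% and 0.744% of the sum in si-NC. The order of levels in si-NC was S100A11, S100A10, S100A13, S100A4, S100A2, S100A16, S100A6, S100P, S100A14 and S100A3. In si-FTO it was S100A11, S100A6, S100A4, S100A10, S100P, S100A16, S100A13, S100A3, S100A2 and S100A14. Whether neighbours in these orders differ by more than the spread between libraries is unknown.

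The other 11 S100 genes were low in both groups. S100A1, the member of heart and skeletal muscle, was the 1 of these 11 that passed the minimum, with 2.09 TPM in si-NC against 2.15 TPM in si-FTO. Its log2 ratio was 0.03, and 0.37 and 0.17 after the scalings of the groups described below. S100A8, S100A9 and S100A12, the members of neutrophils and monocytes, were listed at 0 in both groups, as were S100A7, S100A7A, S100A7L2, S100B, S100G and S100Z. S100A5 had 0.0716 TPM in si-NC against 0.197 TPM in si-FTO. The 7 fused genes, in which an S100 domain starts a long structural protein of the skin, such as FLG and TCHH, did not reach the minimum.

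Of the 10 genes, 9 lie on chromosome 1 and S100P lies on chromosome 4. In GRCh37 with the lifted GENCODE annotation, the S100 genes of chromosome 1 run from chr1:151955391-151966335 (S100A10) to S100A1, which ends at 153604515. All 9 are on the minus strand. S100A6 lies at chr1:153507075-153508720, S100A4 at chr1:153516089-153522612, S100A16 at chr1:153579362-153585621, S100A11 at chr1:152004982-152020383 and S100P at chr4:6695605-6698897 on the plus strand. Their gene models are alike: the coding sequence has between 270 and 315 nucleotides, and in 8 of the 10 canonical transcripts it begins in exon 2. The exceptions are S100A11 and S100P, whose coding sequence begins in exon 1.

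Between the first and the last S100 gene of chromosome 1 lie 47 other protein-coding genes, most of them genes of the skin barrier such as the late cornified envelope and small proline-rich families. Of these, 46 were found in the table, 0 reached the minimum and 43 were listed at 0 in both groups. Of the 10 nearest protein-coding genes on each side, 16 were compared, with 3 called higher, 0 called lower and a median log2 ratio of -0.09, which was -0.01 after quantile normalization and 0.11 after median-ratio scaling (scalings of the groups described below). Among the 3 were NPR1, a receptor of natriuretic peptides, with 0.338 TPM in si-NC against 24.8 TPM in si-FTO, and SLC39A1, a zinc transporter, with 93.2 and 204 TPM. ILF2 was the most abundant of the 16 in both groups, with 834 TPM in si-NC against 482 TPM in si-FTO. Around S100P, 9 of the 10 nearest protein-coding genes were found and compared, with a median log2 ratio of -0.65, and 0 were called higher. The 2 called lower were PPP2R2C, with 2.27 TPM in si-NC against 0.0567 TPM in si-FTO, and ENSG00000170846, with 34.9 and 16.4 TPM, which is not called after either scaling. The most abundant were MRFAP1L1 in si-NC with 81.3 TPM and MRFAP1 in si-FTO with 56.1 TPM. These neighbours are 16 and 9 genes, and 11.4% of all genes compared were called higher, so nothing particular to them is read from the counts.

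**Figure D3:**
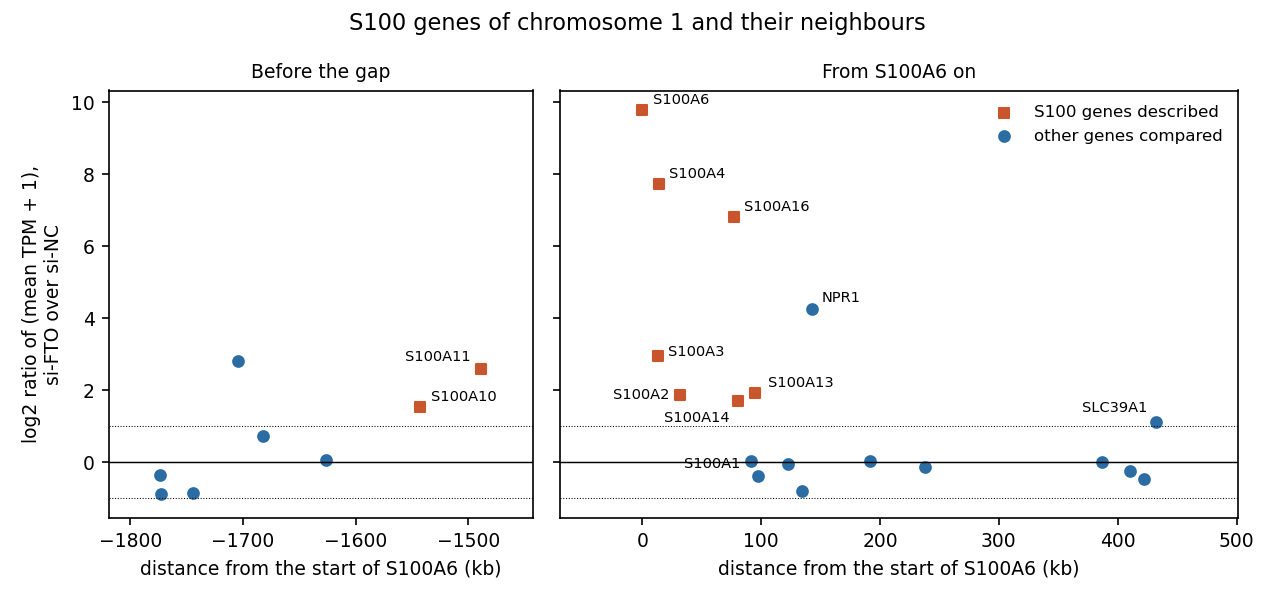
Log2 ratio of mean TPM plus 1, si-FTO over si-NC, of the genes compared in and around the S100 cluster of chromosome 1, against the distance of each gene's start from that of S100A6 in kb; dotted lines mark log2 ratios of -1 and 1. Squares are S100 genes described and circles are other genes, of which S100A1 (0.03) and most neighbours lie between the dotted lines.

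Promoters are shown for S100A6, S100P, S100A4 and S100A16, whose log2 ratios were the largest, and for S100A11, the most abundant. The sequences are from RefSeq on GRCh38.p14, a later build than that of the gene positions above, and run from 250 bases before to 50 bases after the start. This start is that of the RefSeq entry and need not be the gene start used above, since it can lie inside the gene. Promoters were found for 10 of the 10 genes; where a gene had several, the entry listed first was used. Capitals mark matches on either strand to TATAAA (known as the TATA box), to CCAAT (the CCAAT box), to GGGCGG (the GC box) or to TGANTCA (the AP-1 motif, in which N is any base).
S100A6, chr1:153535942-153536241, minus strand: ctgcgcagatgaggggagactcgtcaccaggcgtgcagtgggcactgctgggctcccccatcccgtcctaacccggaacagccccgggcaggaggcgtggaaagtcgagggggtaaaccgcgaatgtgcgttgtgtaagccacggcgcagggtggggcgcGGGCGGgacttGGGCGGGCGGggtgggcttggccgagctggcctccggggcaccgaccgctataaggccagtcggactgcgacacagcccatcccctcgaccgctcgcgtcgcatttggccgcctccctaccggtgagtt
S100P, chr4:6693628-6693927, plus strand: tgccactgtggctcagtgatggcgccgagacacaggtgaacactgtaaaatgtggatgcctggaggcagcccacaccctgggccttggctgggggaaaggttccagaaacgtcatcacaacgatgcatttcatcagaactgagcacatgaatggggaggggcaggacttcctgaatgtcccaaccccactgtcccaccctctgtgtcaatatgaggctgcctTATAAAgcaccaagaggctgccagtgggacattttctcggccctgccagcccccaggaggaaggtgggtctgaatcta
S100A4, chr1:153545757-153546056, minus strand: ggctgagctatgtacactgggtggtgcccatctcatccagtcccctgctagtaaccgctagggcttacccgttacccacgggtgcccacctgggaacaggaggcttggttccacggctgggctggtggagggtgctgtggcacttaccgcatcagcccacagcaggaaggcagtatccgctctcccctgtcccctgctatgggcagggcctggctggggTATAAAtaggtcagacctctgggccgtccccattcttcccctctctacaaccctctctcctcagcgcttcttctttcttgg
S100A16, chr1:153613088-153613387, minus strand: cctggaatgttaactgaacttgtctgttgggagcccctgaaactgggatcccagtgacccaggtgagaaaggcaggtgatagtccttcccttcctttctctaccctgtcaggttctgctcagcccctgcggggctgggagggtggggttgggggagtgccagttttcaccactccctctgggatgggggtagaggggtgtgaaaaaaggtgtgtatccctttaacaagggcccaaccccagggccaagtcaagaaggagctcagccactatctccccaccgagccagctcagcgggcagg
S100A11, chr1:152036955-152037254, minus strand: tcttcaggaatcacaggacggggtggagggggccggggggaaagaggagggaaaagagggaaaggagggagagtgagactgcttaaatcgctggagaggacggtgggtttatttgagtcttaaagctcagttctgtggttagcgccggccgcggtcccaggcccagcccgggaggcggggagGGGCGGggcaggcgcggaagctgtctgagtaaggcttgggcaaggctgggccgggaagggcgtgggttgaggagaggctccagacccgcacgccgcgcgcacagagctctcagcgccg
Counting from the start as 0, TATAAA lies from -31 to -26 in S100A4 and from -28 to -23 in S100P. GGGCGG lies from -68 to -63 in S100A11 and begins at -90, -79 and -75 in S100A6, where the last 2 matches overlap. S100A16 held no match to any of the motifs in this window. Over the 10 genes, TATAAA was found in 2 promoters, CCAAT in 1, GGGCGG in 5 and TGANTCA in 2. Among all 27305 promoters, taking 1 a gene, TATAAA was found in 3264, CCAAT in 9747 (35.7%), GGGCGG in 12174 (44.6%) and TGANTCA in 2120 (7.76%). S100A2 and S100A3 were the genes with TGANTCA. None of these motifs was thus found in all 4 genes with the largest log2 ratios: 2 have TATAAA, 1 has GGGCGG and 1 has no match. A match describes the letters of the window and does not show a binding site.

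The values hold no measure of m6A. GGACT, a common form of the sequence in which m6A occurs, was found in the canonical transcripts of 7 of the 10 genes, 12 times in all, and not in those of S100A6, S100A10 and S100A11. This is 1.70 per 1000 bases over the 10 transcripts and 0.975 per 1000 bases over 19869 canonical transcripts of protein-coding genes, of which 87.8% hold it at least once. Of the 12 matches, 4 lie in S100A3 alone, and nothing about m6A is read from these densities.

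Some of the values may be affected by how reads were split between genes. S100A3 overlaps S100A4 on the same strand, although 0 of the 50-base stretches in their canonical transcripts occur in transcripts of another gene. S100A13 overlaps S100A1 on the opposite strand and the noncoding gene ENSG00000271853 on its own strand, which shares 41.1% of the 50-base stretches of its transcript. That noncoding gene had 30.6 TPM in si-NC against 27.2 TPM in si-FTO, so the level of S100A13 is uncertain. S100A6 overlaps the noncoding gene ENSG00000238279 on the opposite strand, which had 0.107 TPM in si-NC against 1.98 TPM in si-FTO. S100A11 overlaps ENSG00000229021 on the opposite strand, with 0.0255 TPM in si-NC against 0.0332 TPM in si-FTO. The libraries were made with a stranded kit, but whether the counting used strand is not given in the sources used here, and without it reads of overlapping genes cannot be told apart. S100A11 also shares 2.33% of its stretches with a processed pseudogene. For S100A2, S100A10, S100A14, S100A16 and S100P, no overlapping gene is annotated and no stretch is shared. Other genes named in this report, among them ANXA2, CACYBP, EZR, NCL, CALM2, CHP1, PDCD6, ILF2, KRT8, KRT18, KRT19 and CLDN7, have annotated pseudogenes with which reads could be shared, so their levels are uncertain too; the sharing was not measured for them.

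S100 proteins work inside the cell through partner proteins. Of 18 such genes 16 were compared, with 4 called higher, 3 called lower and a median log2 ratio of 0.23, which was 0.11 without a minimum and 0.43 after median-ratio scaling. Beside the counts of this list and of those below stand 11.4% of all genes compared called higher and 17.0% called lower. Of the 4 annexins in this list, ANXA1 and ANXA2 were called higher and ANXA6 and ANXA11 were not called. ANXA2 had 170.2 TPM in si-NC against 1235 TPM in si-FTO (log2 ratio 2.85). ANXA1 had 1.97 TPM in si-NC against 114 TPM in si-FTO (log2 ratio 5.28). ANXA6, the most abundant annexin of the list in si-NC, had 224 and 166 TPM (log2 ratio -0.43), and ANXA11 had 101 and 132 TPM (log2 ratio 0.39). AHNAK, a large protein bound by the complex of S100A10 and annexin A2, had 22.4 and 91.6 TPM (log2 ratio 1.99), and IQGAP1, a scaffold protein, 73.5 and 223 TPM (log2 ratio 1.59). The 4 partners called higher are thus ANXA1, ANXA2, AHNAK and IQGAP1. CACYBP, named for its binding to calcyclin, went the other way, with 279 TPM in si-NC against 83.6 TPM in si-FTO (log2 ratio -1.73). SYT1, a calcium sensor of secretory vesicles, had 4.10 TPM in si-NC against 0.0544 TPM in si-FTO (log2 ratio -2.27). PPP5C, a phosphatase, had 171 and 77.7 TPM (log2 ratio -1.12), which is -0.91 and not called after median-ratio scaling. EZR, the partner of S100P, had 124 and 216 TPM (log2 ratio 0.80), which is 1.01 and called higher after median-ratio scaling. The most abundant partner was NCL, or nucleolin, in si-NC, with 592 TPM there and 346 TPM in si-FTO, and ANXA2 in si-FTO. FGF1 and IL1A, the cargo of S100A13, did not reach the minimum.

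Released S100 proteins act through receptors on the cell surface. Of 5 such genes 4 were compared, with 0 called higher, 1 called lower and a median log2 ratio of 0.23, whose sign depends on the minimum (-0.13 without one and -0.39 at 5 TPM). BSG, or basigin, was the most abundant in both groups, with 708 TPM in si-NC against 1284 TPM in si-FTO (log2 ratio 0.86, or 1.07 after median-ratio scaling). ALCAM had 24.1 TPM in si-NC against 10.9 TPM in si-FTO (log2 ratio -1.07), and is not called after quantile normalization, at -0.98, or after median-ratio scaling, at -0.87. AGER, the best known of these receptors, had 5.73 and 4.14 TPM and was not called. TLR4 was listed at 0 in si-NC and had 0.861 TPM in si-FTO, and is called higher after quantile normalization, at 1.05.

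S100A10 carries ion channels to the cell surface and binds plasminogen and its activators there. Of 10 genes of this list 7 were compared, with 4 called higher, 1 called lower and a median log2 ratio of 1.42, which was 3.15 at a pseudocount of 0.1 and 0.43 without a minimum. Among those called higher, PLAU, the urokinase activator, had 2.02 TPM in si-NC against 18.7 TPM in si-FTO (log2 ratio 2.71), and its receptor PLAUR 11.9 and 33.4 TPM (log2 ratio 1.42). The potassium channel KCNK3 had 0.00711 and 6.48 TPM (log2 ratio 2.89). It passed the minimum through si-FTO only and so had to be higher there. PLAT, the tissue-type activator, had 86.4 TPM in si-NC against 4.37 TPM in si-FTO (log2 ratio -4.02). The activators thus differed in direction, PLAU being higher and PLAT lower in si-FTO. PLAT was the most abundant gene of the list in si-NC and PLAUR in si-FTO.

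EF hands also occur in many proteins outside the S100 family. Of 34 such genes 28 were compared, with 4 called higher, 7 called lower and a median log2 ratio of -0.15, beside 11.4% and 17.0% of all genes and their median of -0.20. After median-ratio scaling the counts were 8 and 5 and the median was 0.06, so its sign depends on the scaling. EFHD2, with 80.1 TPM in si-NC against 288 TPM in si-FTO, CHP1, with 46.2 and 139 TPM, and PDCD6, with 114 and 311 TPM, had the largest log2 ratios, 1.83, 1.57 and 1.44. LCP1, an actin bundling protein, had 13.8 TPM in si-NC against 0.0203 TPM in si-FTO (log2 ratio -3.86). EFHD1 had 64.9 and 8.12 TPM (log2 ratio -2.85). PLS3, first of the list by level in si-NC, had 980.4 TPM there against 171 TPM in si-FTO (log2 ratio -2.51). CALM2, a calmodulin gene, was the most abundant in si-FTO, with 273 TPM in si-NC against 395 TPM in si-FTO.

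**Figure D4:**
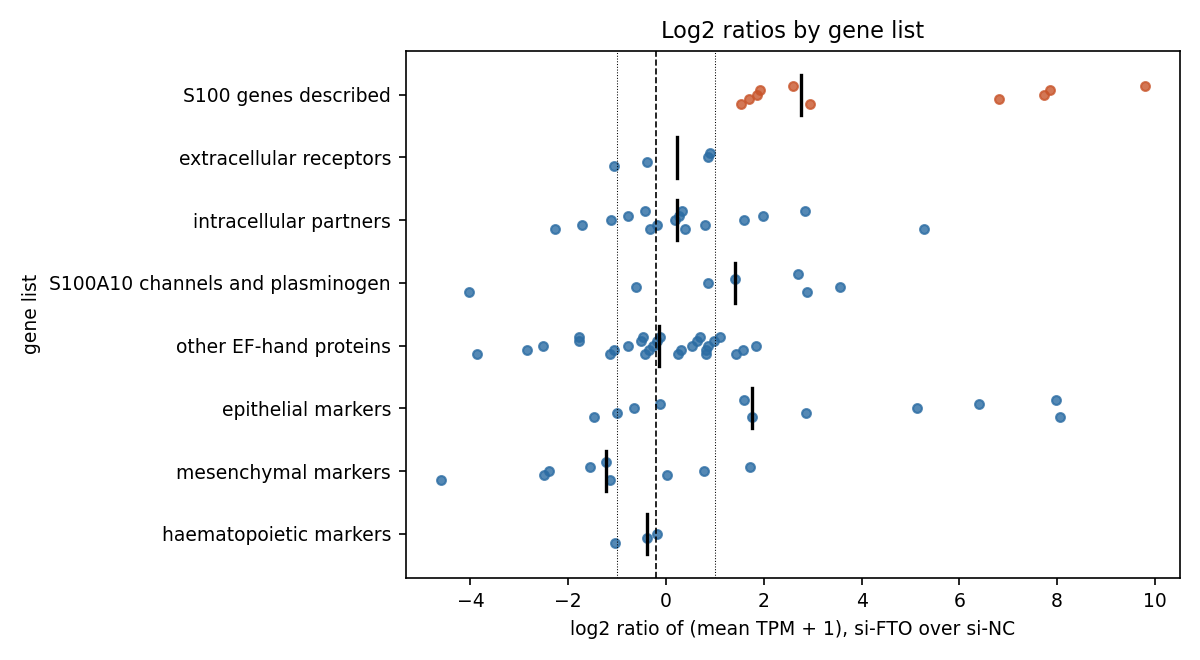
Log2 ratio of mean TPM plus 1, si-FTO over si-NC, of each gene compared, by gene list. Points are genes, short black lines are list medians (2.77 for the S100 genes described), the dashed line is the median of all genes compared (-0.20), and dotted lines mark -1 and 1.

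Markers of cell types were looked up in the same way. Of 15 epithelial markers 11 were compared, with 7 called higher, 1 called lower and a median log2 ratio of 1.76. The shares of all genes compared were 11.4% and 17.0%. KRT7, CLDN3, CLDN4 and ELF3 passed the minimum through si-FTO only and so had to be higher there. EPCAM and RAB25 passed through si-NC only and so had to be lower in si-FTO. The median depends on the settings: it was 3.53, with 3 called lower, at a pseudocount of 0.1, 6.40 for the 5 genes left at a minimum of 5 TPM, and 0.39 without a minimum. The summed level of all 15 was 72.1 TPM in si-NC against 5359 TPM in si-FTO. KRT8 had 10.8 TPM in si-NC against 3139 TPM in si-FTO (log2 ratio 8.06), and was the most abundant of them in si-FTO. KRT18, the most abundant in si-NC, had 52.1 TPM there and 1851 TPM in si-FTO. KRT7 was listed at 0 in si-NC and had 253 TPM in si-FTO, and ELF3 had 0.115 and 93.3 TPM (log2 ratio 6.40). Genes of epithelial cell adhesion were called in both directions or not at all. CLDN7 had 1.17 and 14.8 TPM (log2 ratio 2.86), CLDN3 had 0.165 and 2.95 TPM (log2 ratio 1.76) and CLDN4 had 0.226 and 2.70 TPM (log2 ratio 1.59), whereas EPCAM had 1.22 TPM in si-NC against 0.113 TPM in si-FTO, and CDH1 had 3.67 and 0.685 TPM (log2 ratio -1.47). KRT19, ESRP1, GRHL2 and RAB25 were under 1 TPM in both groups, among them KRT19 listed at 0 in si-NC and ESRP1 and GRHL2 listed at 0 in si-FTO.

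Of 10 mesenchymal markers 9 were compared, with 1 called higher, 6 called lower and a median log2 ratio of -1.22, beside 11.4% and 17.0% of all genes. After quantile normalization 4 were called lower, and 5 after median-ratio scaling. Their summed level was 723 TPM in si-NC against 842 TPM in si-FTO. VIM was the most abundant in both groups, with 439.9 TPM in si-NC against 752 TPM in si-FTO (log2 ratio 0.77). CDH2 had 53.7 TPM in si-NC against 1.25 TPM in si-FTO (log2 ratio -4.61). SNAI2 had 52.5 and 8.55 TPM (log2 ratio -2.49), and SPARC had 114 and 20.7 TPM (log2 ratio -2.40). COL1A1 was the gene called higher, with 10.3 and 36.4 TPM. COL1A2 did not reach the minimum, with 0.0098 TPM in si-NC and a listed 0 in si-FTO. Of 7 haematopoietic markers 3 were compared, with 0 called higher and 1 called lower, and after either scaling 0 were called lower. The sum of these 7 was 4.39 TPM in si-NC against 2.18 TPM in si-FTO, the most abundant in si-FTO was HBB with 0.829 TPM, and PTPRC was listed at 0 in both groups. Blood cell markers were thus near 0 in both groups.

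By Euclidean distance of log2 of mean TPM plus 1 in the 2 groups, the 5 genes nearest to S100A6 were ALPI, ALPP, TM4SF1, PRSS56 and FOLR1. ALPI was listed at 0 in si-NC and had 1178 TPM in si-FTO, at a distance of 0.29. ALPP had 0.0147 and 819 TPM, at a distance of 0.37. These are alkaline phosphatases alike in sequence, between which reads could be split. TM4SF1 was listed at 0 in si-NC and had 558 TPM in si-FTO, PRSS56 had 0.0234 and 514 TPM, and FOLR1 had 0.602 and 420.4 TPM. With only 2 values a gene, nearness says that both means are alike and no more.

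The scaling of the groups changed no call of the 10 S100 genes. Quantile normalization of the groups moved the median over all genes upwards by 0.15 on the log2 scale, and median-ratio scaling moved it by 0.17. Of the genes called in either direction, 40.1% were higher as deposited, 50.3% after quantile normalization and 49.1% after median-ratio scaling. The 10 S100 genes were called higher under both, with the smallest log2 ratio, that of S100A10, at 1.48 and 1.75.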

How the data were processed

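RNA of 3 si-NC and 3 si-FTO libraries of AGS cells was sequenced by the authors, who deposited a table of 58174 genes with the mean TPM of each group. Per the study's methods the reads were mapped with Bowtie and quantified with RSEM; the submitters' processing notes name HISAT2. Both give hg19, and which tool made the values could not be told from them. The table's log2 fold change, p-value and q-value columns hold the authors' own comparison and were not used. A second table of 7986 genes was not used; 0 of its rows gave other TPM values (relative tolerance 0.0001).

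A deposited value of exactly 0.0001 was read as 0. The groups are those of the library titles. Log2 ratios were taken of mean TPM with a pseudocount of 1. No test was run, because group means hold no spread between libraries; limma had been planned for values per library. Symbols were found for 55726 identifiers. Gene models and transcripts are those of GENCODE lifted to GRCh37; promoters are RefSeq's on GRCh38.p14. Protein sequences were not used here. The members and lists were chosen with earlier results of these data known.

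The genes named are the members, other S100 genes that passed the minimum, FTO, the most abundant gene of each list and of the neighbours in each group, of each up to 3 called genes with the largest rise and 3 with the largest fall, and the 5 genes nearest to the member with the largest rise. Some genes covered by this rule are not reported here. Overlapping genes, genes below the minimum, AGER, IQGAP1, EZR, TLR4, EPCAM and other markers named to show a level were added after their values were seen, as were the search for GGACT and the shared 50-base stretches. Alternatives were other pseudocounts, filters, scalings and thresholds. Python 3.11.15 was used with numpy 2.4.6, pandas 2.3.3 and matplotlib 3.10.9. The calculations were tested on simulated data.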

Additional observations from a re-analysis of the deposited data

How the results depend on the processing

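No paired analysis was possible because the deposited values are group means, from which no test, replicate block or value without a replicate could be made. Under the other 8 alternatives, the 10 S100 genes gave 79 log2 ratios, all above 0; 75 of these were past the threshold in use. The other 4, of S100A2, S100A10, S100A13 and S100A14, fell below a threshold of 2, at which 6 of the 10 genes were called higher. At a minimum mean TPM of 5, 9 of the 10 genes were compared and all 9 were called higher. The number called lower was 0 throughout. The other thresholds, the minimum of 5 TPM and the removal of the minimum alone left each ratio as it was, so many of these values repeat. Because the same contrast chose the 10 genes, nothing is read from the signs or from these counts. The median log2 ratio of the 10 genes was 5.22 with a pseudocount of 0.1, and 7.62 with 0.0001 TPM kept and no pseudocount or filter, a size set by genes near 0 in si-NC.

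For all genes, the counts called higher, lower and in all were 976, 1241 and 2217 at a threshold of 2, and 4326, 7160 and 11486 at a threshold of 0.5. With 0.0001 TPM kept and no pseudocount or filter they were 7501, 12118 and 19619. A minimum mean TPM of 5 left 2254 genes called lower, since fewer genes were compared. Other counts of all genes, and the median of the 10 genes under the other settings, were within 1.5 times those reported.

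Depth and the spread between libraries cannot be had from these means, so whether a ratio near the threshold, such as that of S100A10, or a mean near 0, such as that of S100A14, would hold in each library cannot be told from these values.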
